A study of Homo sapiens with 6 samples.

Results

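The RCC1 repeat genes are described here in DU145 cells with and without knockdown of RCC2. Members were taken by symbol: RCC2, RCC1, RCC1L, RCCD1, RCBTB1, RCBTB2, SERGEF, RPGR, HERC1 and HERC2, which are 10 of the 50868 genes with a row in the files. DU145 is an established, androgen-independent human prostate cancer line. One group received a control siRNA (siCtrl, genotype label RCC2 wild type) and the other an siRNA against RCC2 (siRCC2, genotype label RCC2 knockdown), with 3 libraries each. The title of the series concerns the part RCC2 plays in growth and migration of prostate cancer cells and in Hedgehog signalling. The sources used here do not give the siRNA sequence, the dose, the time, or whether 1 siRNA or a pool was used. Nothing in the labels says that replicates were separate cultures, so the p-values here reflect only how these libraries vary, and that variation may be technical. Fewer cells of a type and less RNA per cell cannot be told apart in such bulk samples.

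The RCC1 repeat is a stretch of protein that folds, in tandem copies, into a bladed propeller. In RCC1 the propeller sits on chromatin and loads GTP onto Ran, which directs nuclear transport and spindle assembly. In relatives the fold serves other ends: small GTPases, ubiquitin ligases, mitochondria and cilia. RCC2, also called TD-60, binds centromeres in mitosis with the chromosomal passenger complex and acts on small GTPases in cell migration.

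Total counts were between 17377191 and 19895431 per library. The epithelial markers KRT8, KRT18, EPCAM and CDH1 had at least 162 counts in each library. Of the secreted prostate markers, KLK2 had 0 counts in each library and KLK3 at most 1. Of the markers of other cell types, the 3 leukocyte genes reached at most 1 count, the 3 endothelial genes at most 11, LUM 0 and DCN 6. COL1A1 had 129 to 256 counts and COL3A1 5 to 21. The library of siRCC2 replicate 1 stood apart from the other siRCC2 libraries in long genes. Its median log2 difference from the mean of replicates 2 and 3 was -0.27 over 912 tested genes with more than 12 kb of exon, and 0.11 over 2948 genes with less than 2 kb.

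All 10 genes passed the filter on low counts. At an adjusted p under 0.05 in edgeR's quasi-likelihood test, 1 was higher in siRCC2 (RCC1L), 4 were lower (RCC2, RPGR, RCBTB1 and RCCD1), and 5 did not pass. Over all 16536 tested genes 41.8% were called, 20.7% higher and 21.1% lower. Without RCC2 itself, the target of the siRNA, 4 of 9 were called, 44.4%, which is close to that background. The median log2 fold change of those 9 was 0.12, against -0.02 over all tested genes. The ranges of CPM in siCtrl and siRCC2 were apart in 7 of the 10 genes, in 6 of the 9 other than RCC2, and in 55.4% of all tested genes. Without siRCC2 replicate 1, 2 of the 10 were higher and 4 lower, RCC2 among them, and the added gene was HERC1. More genes were called in that fit over the whole series too, 3666 higher and 3899 lower, against 3423 and 3488 with all libraries.

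**Figure D1:**
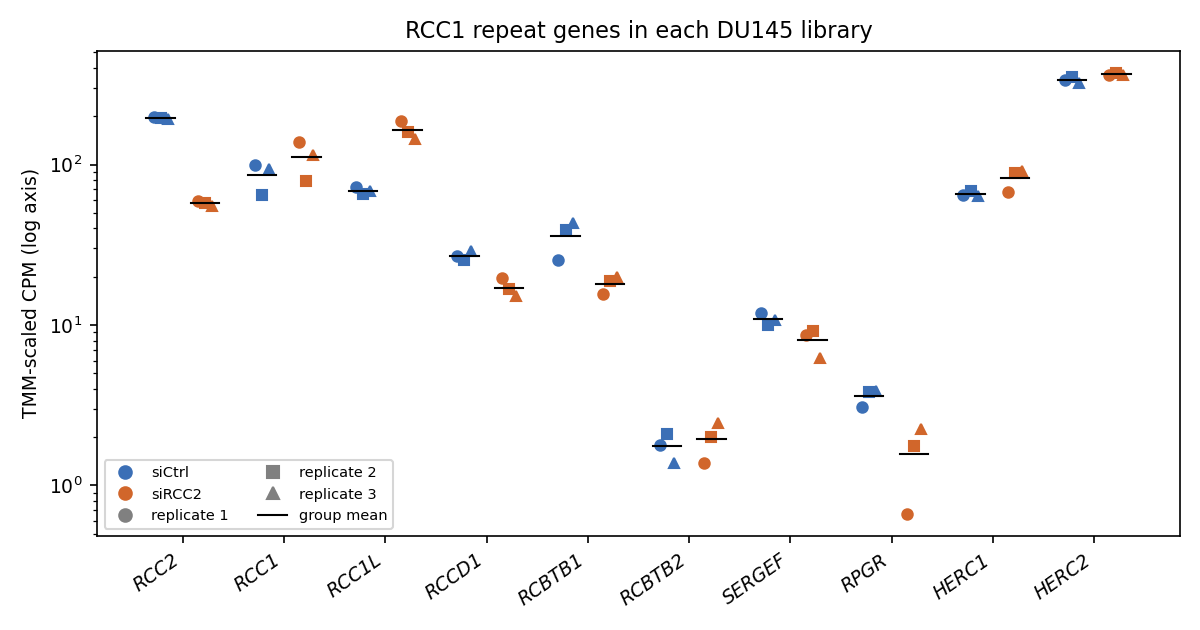
Normalised level (CPM scaled by TMM, log axis) of the 10 RCC1 repeat genes in each library, with siCtrl in blue, siRCC2 in orange, symbols for replicate numbers and lines for group means. RCC2 fell from 194 to 57.2 CPM and RCC1L rose from 68.8 to 163 CPM, and in RPGR siRCC2 replicate 1 lies lowest, at 0.665 CPM.

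RCC2 (ENSG00000179051, chr1:17406760-17439724 on GRCh38, minus strand) checks the labels. It stood at 198, 194 and 191 CPM in siCtrl replicates 1 to 3, against 59.3, 57.6 and 54.8 CPM in the siRCC2 libraries in that order. The siRCC2 libraries thus held 30.5%, 29.6% and 28.2% of the siCtrl mean, and no library of either group came near the other. The fitted log2 fold change was -1.76 ± 0.07 (SE; n = 3 libraries each; edgeR adjusted p = 2e-05). As a share, 29.4% of the siCtrl level remained, with a 95% interval from 26.4% to 32.8%. The 8 RCC2 pseudogenes with a row together held 2 to 9 counts per library, 0.27% of the RCC2 counts, and 2.5% of the 50-mers in its longest transcript are found in other genes too.

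Among the genes whose log2 CPM over the 6 libraries, centred on the siCtrl mean, lay nearest to RCC2 were DOP1B, SLC41A1, EPHA2 and PFAS. Likeness was the root mean square difference over the 6 libraries among 11842 genes of at least 5 CPM. These 4 lay between 0.048 and 0.064 log2 units from RCC2. As they were picked by this likeness, falls close to that of RCC2 follow from the choice. DOP1B went from 66.9 ± 2.24 to 20.2 ± 0.603 CPM (SD, n = 3). EPHA2, an ephrin receptor tyrosine kinase, went from 516 ± 12.1 to 156 ± 15.1 CPM. PFAS, an enzyme of purine synthesis, had a log2 fold change of -1.83. SLC41A1, a magnesium transporter gene, had one of -1.73.

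The sequence searched in the transcripts was the 6-mer TCTGGA, on the transcript strand in GENCODE models. It was chosen with earlier results of these data known, where it was the core of a motif examined in 3′ UTRs. Sequences are shown for the sites in the RCC2 transcript and the 3′ UTR site of RPGR, the 1 other member with such a site. They are read from GENCODE release 29, 5′ to 3′, with the 6-mer in capitals and 12 bases of context on each side.
RCC2 5′ UTR, chr1:17439671-17439700, minus strand: tgtagcatttgtTCTGGAagctcgtattta
RCC2 coding sequence, chr1:17409981-17410010, minus strand: ggaggtaaagacTCTGGAtggcattttctc
RCC2 3′ UTR, chr1:17407827-17407856, minus strand: gtttccagagggTCTGGActggtttgggtg
RPGR 3′ UTR, chrX:38284846-38284875, minus strand: ttaaatgtataaTCTGGAaatatgtaaaac
Of the 9 members whose longest coding transcript has a 3′ UTR of at least 100 bases, 2 held the 6-mer there, RCC2 and RPGR. Both were lower in siRCC2, but RCC2 is the target of the siRNA. The call of RPGR did not hold without each library in turn. RCCD1 and RCBTB1, which were lower too, held none in the 3′ UTR. Of 12757 tested genes searched in the same way, 43.5% held it. Of those holders 30.1% were lower in siRCC2 and 17.5% higher, against 18.8% and 24.6% of the genes without it. Holders had longer 3′ UTRs (a median of 2439 bases against 798). Since the 6-mer was chosen with earlier results of these data known, the contrast in calls is no independent evidence about it. Outside the 3′ UTR the 6-mer is common in these genes: 8 of the 10 carry it in the coding sequence, HERC2 at 12 places and HERC1 at 9. A match is a description of the letters, and whether the siRNA pairs with any of these sites was not tested.

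RCC1 (ENSG00000180198, chr1:28505943-28539300, plus strand), the exchange factor of Ran, did not pass the test. Its level was 99.6, 64.3 and 93.8 CPM in siCtrl replicates 1 to 3, against 139, 79 and 115 CPM in the siRCC2 libraries in that order. The library numbered 2 was the lowest of both groups, and the ranges overlapped. The log2 fold change was 0.37 ± 0.24 (SE; adjusted p = 0.25 in edgeR), with a 95% interval from -0.19 to 0.92. Single libraries moved it: it was 0.16 without siRCC2 replicate 1, 0.19 without siCtrl replicate 2 and 0.58 without siRCC2 replicate 2, and it passed in none of these fits. With the replicate number as a block it was 0.36 and passed (edgeR adjusted p = 0.0231), though the numbers are not taken as pairs here. SNHG3, a small nucleolar RNA host gene on the same strand whose span lies inside that of RCC1, held 41.6% as many counts. SNHG3 fell from 48 ± 0.972 to 32.8 ± 1.4 CPM (SD, n = 3), a change of -0.55 ± 0.08 on the log2 scale (SE; adjusted p = 0.00168 in edgeR). Of the 50-mers in the longest RCC1 transcript, 3.01% are also found in SNHG3, so the split of counts between them is uncertain. Summed with SNHG3, RCC1 had a log2 fold change of 0.10 (edgeR adjusted p = 0.678).

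RCCD1 (ENSG00000166965, chr15:90954870-90963125, plus strand), which works with the oxygenase KDM8 at chromatin and in mitosis, fell. It stood at 27, 25.5 and 28.9 CPM in siCtrl replicates 1 to 3, against 19.5, 16.7 and 15.1 CPM in the siRCC2 libraries in that order. Each siRCC2 library lay below each siCtrl library. The log2 fold change was -0.67 ± 0.12 (SE; adjusted p = 0.00486 in edgeR). The call held without each library in turn, with log2 fold changes from -0.78 to -0.58.

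RCC1L (ENSG00000274523, chr7:75027122-75074228, minus strand), a mitochondrial member needed for assembly of the mitochondrial ribosome, was the one gene of the 10 that rose. Its level was 72.1, 65.5 and 68.7 CPM in siCtrl replicates 1 to 3, against 186, 159 and 145 CPM in the siRCC2 libraries in that order. The lowest siRCC2 library lay far above the highest siCtrl library. The log2 fold change was 1.25 ± 0.11 (SE; adjusted p = 0.00021 in edgeR), which is 2.37-fold. The call held without each library in turn, between 1.13 without siRCC2 replicate 1 and 1.33 without siRCC2 replicate 3. None of the 50-mers in its longest transcript is found in another annotated gene.

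RCBTB1 and RCBTB2 join RCC1 repeats to a BTB domain, a fold that in RCBTB1 binds the ubiquitin ligase scaffold CUL3. RCBTB1 (ENSG00000136144, chr13:49531946-49585583, minus strand) fell. It stood at 25.6, 39 and 43.2 CPM in siCtrl replicates 1 to 3, against 15.5, 18.8 and 19.8 CPM in the siRCC2 libraries in that order. The groups did not overlap, though siCtrl replicate 1 was well below the other siCtrl libraries. The log2 fold change was -0.99 ± 0.21 (SE; adjusted p = 0.00805 in edgeR), and -1.19 without siCtrl replicate 1. RCBTB2 (ENSG00000136161, chr13:48488959-48533256, minus strand) had 36, 39 and 27 counts in siCtrl and 23, 39 and 47 in siRCC2, about 2 CPM. Its groups overlapped, and its log2 fold change of 0.16 ± 0.27 (SE; adjusted p = 0.671 in edgeR) turned to -0.04 without siRCC2 replicate 3. At this depth changes of RCBTB2 between -0.49 and 0.81 log2 units lie within the 95% interval. AL157813.1 overlaps the span of RCBTB2 on the same strand, with 11.4% as many counts, and how reads were split between them was not tested.

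SERGEF (ENSG00000129158, chr11:17788048-18013162, minus strand), which binds the exocyst subunit EXOC2 and is linked to secretion, did not pass. It stood at 11.9, 10 and 10.7 CPM in siCtrl replicates 1 to 3, against 8.71, 9.22 and 6.24 CPM in the siRCC2 libraries in that order. All siRCC2 libraries were below all siCtrl libraries, by a small margin for replicate 2. The log2 fold change was -0.43 ± 0.17 (SE; adjusted p = 0.0822 in edgeR), with a 95% interval from -0.84 to -0.03. It was -0.28 without siRCC2 replicate 3 (edgeR adjusted p = 0.157), and it passed with libraries scaled by total count alone (edgeR adjusted p = 0.0454). Of the 50-mers in its longest transcript 23.4% are also found in AC055860.1, a share close to the 23.2% that HERC2 has in common with other genes. AC055860.1 held 1 count over all libraries, against 1076 for SERGEF.

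RPGR (ENSG00000156313, chrX:38269163-38327564, minus strand), which gates traffic into the cilium and is mutated in X-linked retinitis pigmentosa, was low and fell. It had 62, 71 and 75 counts in siCtrl replicates 1 to 3, against 11, 34 and 43 in the siRCC2 libraries in that order. The groups did not overlap, and siRCC2 replicate 1 lay far under the other siRCC2 libraries. The level went from 3.59 ± 0.444 to 1.56 ± 0.812 CPM (SD, n = 3), a change of -1.18 ± 0.37 on the log2 scale (SE; adjusted p = 0.0395 in edgeR). Without siRCC2 replicate 1 the change was -0.85 ± 0.22 (SE; adjusted p = 0.0192 in edgeR). The call was lost without siCtrl replicate 1, 2 or 3 or siRCC2 replicate 2, with edgeR adjusted p between 0.0685 and 0.104.

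HERC1 and HERC2 are giant ubiquitin ligases that carry RCC1 repeats beside a HECT domain. HERC1 (ENSG00000103657, chr15:63608618-63833942, minus strand) stood at 64.3, 68.8 and 63.9 CPM in siCtrl replicates 1 to 3, against 67.7, 88.9 and 91.5 CPM in the siRCC2 libraries in that order. Replicate 1 of siRCC2 lay within the siCtrl range and the other siRCC2 libraries above it. The log2 fold change was 0.33 ± 0.12 (SE; adjusted p = 0.0659 in edgeR), and 0.44 ± 0.07 without siRCC2 replicate 1 (SE; adjusted p = 0.00265 in edgeR). With offsets for exon length, an alternative added after seeing the data, it was 0.49 (edgeR adjusted p = 0.00179). It also passed, at 0.34, with DESeq2 size factors (edgeR adjusted p = 0.0467), in DESeq2 (adjusted p = 0.044) and under a filter of 1 CPM in 3 libraries (edgeR adjusted p = 0.0471).

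HERC2 (ENSG00000128731, chr15:28111040-28322152, minus strand), a ligase of the DNA damage response, had the most counts of the 10. It stood at 338, 351 and 324 CPM in siCtrl replicates 1 to 3, against 364, 373 and 362 CPM in the siRCC2 libraries in that order. The groups did not overlap, but the difference was small, 0.12 ± 0.06 on the log2 scale (SE; adjusted p = 0.155 in edgeR), with a 95% interval from -0.02 to 0.26. Its 10 pseudogene rows together held 29% as many counts as HERC2, HERC2P2 the most, and 23.2% of the 50-mers in its longest transcript are found in other genes too. HERC2 summed with them had a log2 fold change of 0.16 (edgeR adjusted p = 0.087), and HERC2P2 went from 46 ± 0.75 to 57.7 ± 13.3 CPM (SD, n = 3; edgeR adjusted p = 0.151). With exon length offsets HERC2 had a log2 fold change of 0.32 (edgeR adjusted p = 0.0596).

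**Figure D2:**
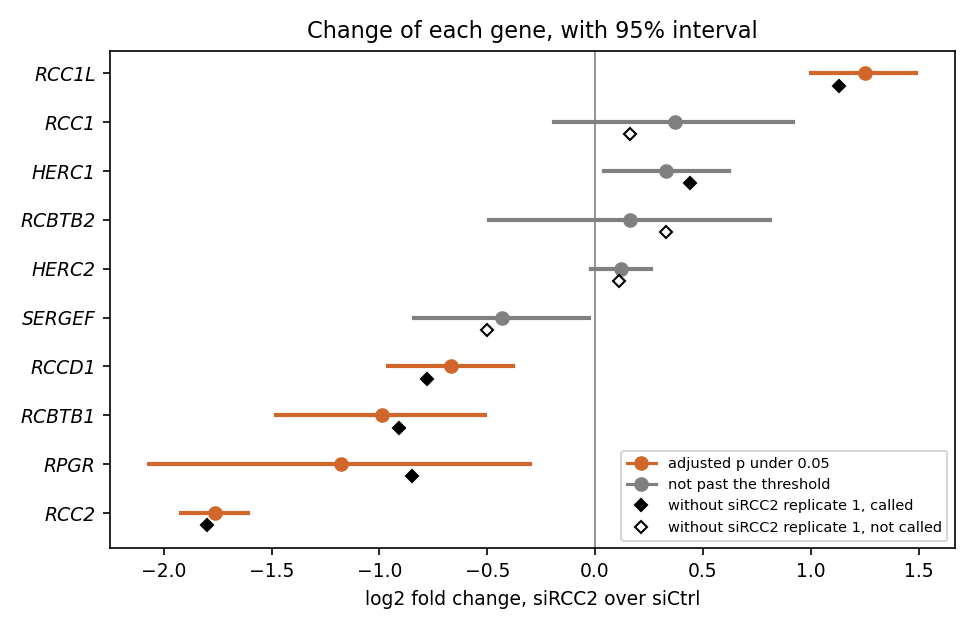
Log2 fold change of each gene, siRCC2 over siCtrl (circles, with 95% intervals as bars, orange where the edgeR adjusted p is under 0.05), and the value without siRCC2 replicate 1 (diamonds, filled where called). RCC1L lies alone on the right at 1.25, RCC2 is lowest at -1.76, and HERC1 is called without that library and not with it.

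Levels of different genes were compared per length, as CPM per kilobase of exon. RCC2 was the highest of the 10 in siCtrl, at 47.1 ± 0.93 (SD, n = 3), above 94.4% of tested genes with a known length. RCC1 (22.1 ± 4.86), HERC2 (16.8 ± 0.669) and RCC1L (16.4 ± 0.789) came next, and these neighbours did not differ beyond the spread of their libraries. RCBTB1 (7.92 ± 2.03) and RCCD1 (5.46 ± 0.339) followed, also overlapping each other, then HERC1 (3.85 ± 0.16) and SERGEF (3.11 ± 0.272). RCBTB2 (0.496 ± 0.1) and RPGR (0.428 ± 0.053) were the lowest and overlapped.

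In siRCC2 the order differed at the top and in the middle, where HERC1 moved from rank 7 to rank 5. RCC1L came first at 38.9 ± 4.99 CPM per kilobase, overlapping RCC1 at 28.5 ± 7.74, and RCC2 came after both and HERC2, at 13.9 ± 0.546. HERC2 stood at 18.2 ± 0.285. HERC1 (4.85 ± 0.767), RCBTB1 (3.97 ± 0.496) and RCCD1 (3.44 ± 0.444) overlapped as neighbours. SERGEF (2.3 ± 0.455), RCBTB2 (0.551 ± 0.152) and RPGR (0.186 ± 0.097) kept the last places. With the length of the longest transcript in place of all exons, RCC2 stayed first in siCtrl at 47.6, and RCC1L (28.4) passed HERC2 (22), SERGEF (6.95) passed HERC1 (4.34), and RPGR (0.753) passed RCBTB2 (0.544).

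**Figure D3:**
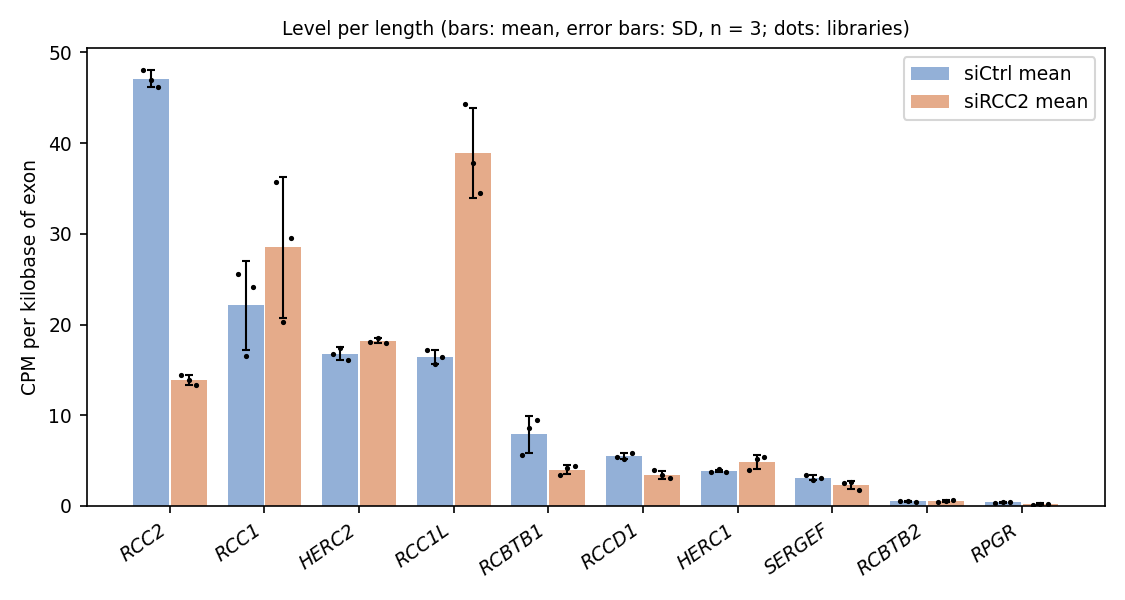
Level of each gene as CPM per kilobase of exon in siCtrl (blue) and siRCC2 (orange), bars for means, error bars for SD (n = 3) and dots for libraries. RCC2 leads in siCtrl at 47.1 and RCC1L in siRCC2 at 38.9.

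Several of the longest RCC1 repeat genes were low in siRCC2 replicate 1 relative to replicates 2 and 3. The log2 difference of that library was -0.41 for HERC1 (17053 bases of exon) and -1.44 for RPGR (8378 bases), but -0.01 for HERC2, the longest at 20163 bases. Among other genes with RCC1 repeats it was -1.16 for MYCBP2, -1.04 for IBTK and -0.65 for HERC4, and 0.14 for NEK9. The shorter RCC1 (0.54), RCC1L (0.29) and RCCD1 (0.29) were higher in that library, and RCBTB1 (-0.31) and RCBTB2 (-0.64) lower. Without this library the log2 fold change of RCC1 was 0.16, of RCBTB1 -0.91, of RCBTB2 0.33 and of HERC2 0.11, and RCBTB1 alone of these 4 was called, as with it.

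**Figure D4:**
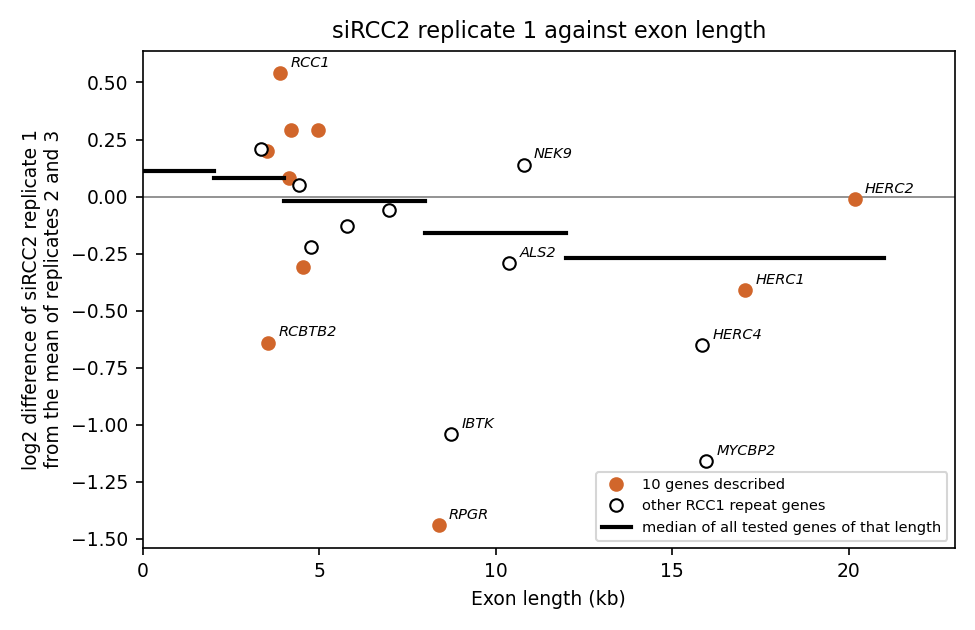
Log2 difference of siRCC2 replicate 1 from the mean of replicates 2 and 3 (vertical axis) against exon length in kb (horizontal axis) for the 10 genes described (filled) and 10 other RCC1 repeat genes (open), with black lines for the median of all tested genes of that length. The lines run from 0.11 under 2 kb to -0.27 over 12 kb, RPGR lies lowest at -1.44, and HERC2 lies at -0.01.

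The other 10 genes with RCC1 repeats, all tested, included 2 that rose, 2 that fell and 6 that did not pass (40% called, against 41.8% of all tested genes). Across these and the partner genes of the following lists, 56 in all, 16 rose and 12 fell, 50% called against 41.8%. Without siRCC2 replicate 1 the counts were 17 and 13. Over all genes they were 3666 and 3899 in that fit, against 3423 and 3488 with all libraries. HERC5, the ligase of the ubiquitin-like protein ISG15, fell from 13 ± 1.53 to 5.51 ± 0.516 CPM (SD, n = 3), and its neighbour HERC6 from 12.9 ± 1.25 to 7.91 ± 1.2 CPM. Their log2 fold changes were -1.23 and -0.70 (edgeR adjusted p = 0.000697 and 0.00919), and both calls held without each library in turn. HERC3, the third gene of this cluster on chromosome 4, rose by 0.53 (edgeR adjusted p = 0.0259), and the mitotic kinase gene NEK9 by 0.26 (edgeR adjusted p = 0.0296). The calls of HERC3 and NEK9 were each lost without 4 of the 6 libraries, siRCC2 replicate 3 and siCtrl replicates 1 and 3 for both, siRCC2 replicate 2 for HERC3 and siCtrl replicate 2 for NEK9. Their edgeR adjusted p reached 0.0857 and 0.0991. With all libraries, 1 gene of this list was higher with upper quartile scaling, total counts alone or a replicate block, and none with a filter of at least 1 read. There were 2 with DESeq2 size factors, DESeq2, limma-voom or the 1 CPM filter, and 3 with exon length offsets.

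Among 11 genes of the Ran cycle, in which RCC1 acts, 5 rose, 1 fell and the other 5 did not pass the test, 54.5% called against 41.8% of all tested genes, with a median log2 fold change of 0.15 against -0.02. RAN itself rose from 302 ± 16.8 to 441 ± 66.5 CPM (SD, n = 3), a change of 0.55 ± 0.11 on the log2 scale (SE; adjusted p = 0.00769 in edgeR). NUTF2, which carries Ran into the nucleus, rose by 0.69, RANBP3, a cofactor of nuclear export, by 0.62 and TPX2, a spindle factor released by Ran, by 0.32. These 4 calls held without each library in turn. Named after their values were seen, KPNA2 rose (0.34) and RANGAP1, the activator of GTP hydrolysis by Ran, had a log2 fold change of -0.21 (edgeR adjusted p = 0.0429). The call of KPNA2 was lost without siCtrl replicate 3 or siRCC2 replicate 2 (edgeR adjusted p up to 0.0747), and that of RANGAP1 without any 1 library other than siRCC2 replicate 1 (up to 0.216). With all libraries, no gene of this list was lower with DESeq2 size factors, in DESeq2, under the 1 CPM filter or with a replicate block. With upper quartile scaling, limma-voom or a filter of at least 1 read, 2 were lower, and with total counts alone 3.

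Among 9 genes whose products bind or work with RCC2, 4 rose, 1 fell and the other 4 did not pass the test (55.6% called, against 41.8% of all tested genes). Their median log2 fold change was 0.22, against -0.02 over all tested genes. CTTN, which encodes the actin-binding cortactin, rose from 139 ± 3.33 to 333 ± 31.5 CPM (SD, n = 3), a change of 1.26 ± 0.08 on the log2 scale (SE; adjusted p = 8.85e-05 in edgeR). The small GTPase genes RAC1 (log2 fold change ± SE of 0.53 ± 0.10) and RALA (0.68 ± 0.10) rose, and ARF6, another small GTPase gene, fell from 370 ± 11.2 to 228 ± 10.9 CPM (-0.70 ± 0.06, edgeR adjusted p = 0.000288). Of the chromosomal passenger genes, CDCA8 rose by 0.37, named after its value was seen, while AURKB (0.22, edgeR adjusted p = 0.051), INCENP (-0.08, edgeR adjusted p = 0.343) and BIRC5 (0.10, edgeR adjusted p = 0.461) did not pass. The 5 calls held without each library in turn. CORO1C, which encodes an actin-binding coronin, did not pass (-0.19, edgeR adjusted p = 0.544), and its siRCC2 libraries ran from 160 CPM in replicate 1 to 328 CPM in replicate 3.

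Among 6 genes listed as partners of RCC1L, OPA1 included, 1 rose, 1 fell and the other 4 did not pass the test (33.3% called, against 41.8% of all tested genes). NGRN rose from 245 ± 2.27 to 495 ± 48 CPM (SD, n = 3), a change of 1.02 ± 0.08 on the log2 scale (SE; adjusted p = 0.000171 in edgeR), and RPUSD3, a pseudouridine synthase gene, fell from 30.8 ± 3.05 to 11.3 ± 1.4 CPM (-1.44 ± 0.13, edgeR adjusted p = 0.000283). Both calls held without each library in turn. The related RPUSD4 (-0.07, edgeR adjusted p = 0.765) and TRUB2 (-0.09, edgeR adjusted p = 0.554) did not pass.

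Among 8 partners of RPGR at the cilium base, 1 rose, 2 fell and the other 5 did not pass the test (37.5% called, against 41.8% of all tested genes). RPGRIP1, its anchor in photoreceptors, was low but rose from 0.828 ± 0.086 to 1.76 ± 0.0758 CPM (SD, n = 3), a change of 1.09 ± 0.21 on the log2 scale (SE; adjusted p = 0.00591 in edgeR). PDE6D, which ferries lipid-modified cargo, fell by 0.43 on the log2 scale (edgeR adjusted p = 0.0146), and NPHP4 by 0.35 (edgeR adjusted p = 0.0255). The call of PDE6D was lost without siCtrl replicate 2 or siRCC2 replicate 2 (edgeR adjusted p up to 0.0843). That of NPHP4 was lost without siCtrl replicate 1, 2 or 3 or siRCC2 replicate 2 (up to 0.136).

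Among 9 partners of HERC2, 3 rose, 4 fell and the other 2 did not pass the test, 77.8% called against 41.8% of all tested genes. Their median log2 fold change was -0.28, against -0.02 over all tested genes. The fallen genes included RNF8 (log2 fold change ± SE of -0.67 ± 0.11), UBE2N (-0.42 ± 0.09) and BRCA1 (-1.11 ± 0.21), each known from the ubiquitin response to DNA breaks. RNF168, of the same response, did not pass (-0.28, edgeR adjusted p = 0.225). The kinase gene MAPK6 rose from 102 ± 4.5 to 198 ± 38.1 CPM (0.96 ± 0.14, edgeR adjusted p = 0.00181). The calls of RNF8, UBE2N, BRCA1 and MAPK6 held without each library in turn. Named after their values were seen, USP20 (-0.33), NEURL4 (0.35) and UBE3A (0.62) were called too. The calls of USP20 and UBE3A were lost without any 1 library other than siRCC2 replicate 1 (edgeR adjusted p up to 0.128 and 0.102), and that of NEURL4 without siRCC2 replicate 2 (0.056). Of the partners of RCCD1, SERGEF and RCBTB1, EXOC2 fell from 64.2 ± 2.44 to 41.7 ± 1.58 CPM (-0.62 ± 0.08, edgeR adjusted p = 0.00088), and KDM8 (-0.36, edgeR adjusted p = 0.165) and CUL3 (0.11, edgeR adjusted p = 0.642) did not pass.

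**Figure D5:**
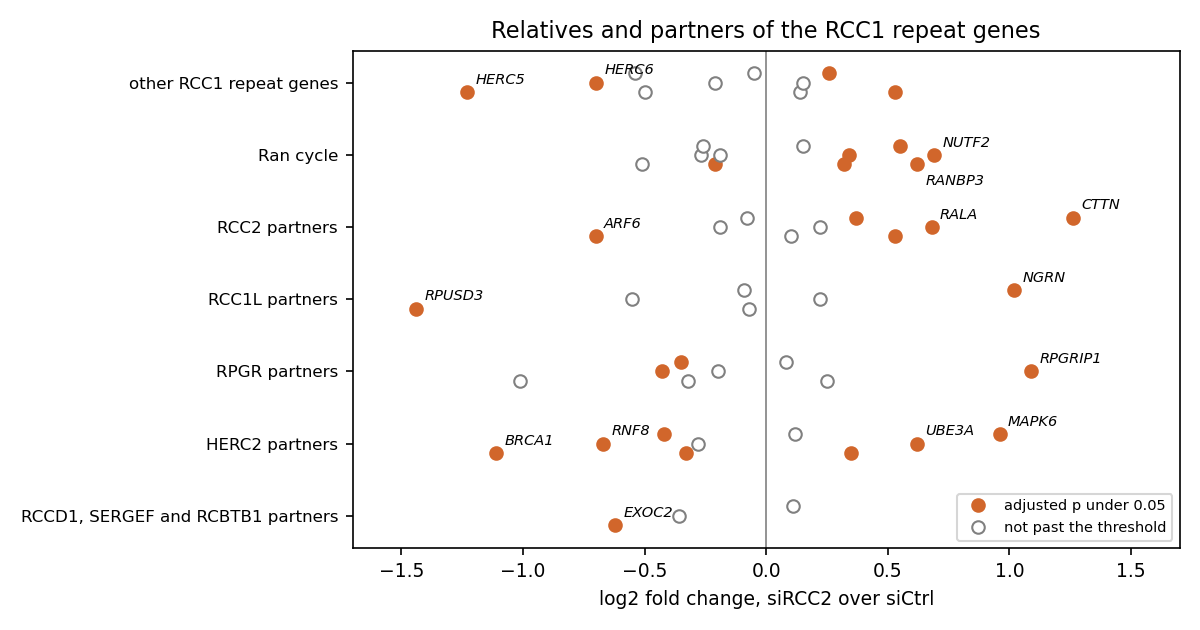
Log2 fold change, siRCC2 over siCtrl, of the genes in 7 lists of relatives and partners (rows, with points spread vertically for legibility), filled where the edgeR adjusted p is under 0.05. CTTN is highest at 1.26 and RPUSD3 lowest at -1.44, and of 56 genes 16 rose and 12 fell.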

How the data were processed

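RNA was sequenced from DU145 cells, 3 siCtrl and 3 siRCC2 libraries, grouped by sample title. The authors deposited 1 table per library of whole-number counts per gene. Bowtie2, RSEM, DESeq2 and GRCh38 are named, without versions, per the submitters' processing notes; RSEM estimates may have been rounded. Strand handling is not given in the sources used here. Exon lengths, transcripts and strands came from GENCODE release 29, which holds 50111 of the 50868 genes, 94.9% at the same coordinates; the 10 genes described match. As a check for a library deposited more than once, libraries within each group were compared with counting noise and differed beyond it (chi-square over its degrees of freedom, 10.3 to 35); this does not show that they are separate cultures.

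The main test was edgeR 4.0.16 in R 4.3.3 (filterByExpr, TMM, glmQLFit, glmQLFTest; Benjamini-Hochberg over 16536 genes). The SE of a fold change was taken from its size and F statistic. CPM is TMM-scaled. The test was checked on simulated counts. Alternatives were other scalings, DESeq2 1.42.0, limma-voom (limma 3.58.1), filters, thresholds, a replicate block, sums with pseudogenes and each library left out; exon length offsets and the sum of RCC1 with SNHG3 were added after seeing the data. Named genes are the 10 members, up to 4 called members of each of 7 lists by smallest p, the 5 nearest to RCC2, and overlapping genes or pseudogenes with at least 10% of a member's counts. Listed genes named beyond this rule were named after their values were seen. Some genes that the rule or the marker lists cover are not reported here. The members and lists were chosen with earlier results of these data known. Figures used Python 3.11.15 and matplotlib 3.10.9.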

Additional observations from a re-analysis of the deposited data

How the results depend on the processing

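The 5 calls among the 10 genes kept their direction under every alternative run, and RCC2 (-1.83 to -1.73), RCC1L, RCCD1 and RCBTB1 kept their call in all of them. RPGR lost its call in 4 of the 6 fits that left out 1 library. The number called higher among the 10 was 2 with DESeq2 size factors, DESeq2, genes of at least 1 CPM in 3 libraries or exon length offsets. HERC1 was the added gene in each case. Of all genes, 3480, 3361, 3322 and 3509 were higher in these fits, in that order, against 3423 in the main test. Leaving out 1 library gave 1 to 2 higher and 3 to 4 lower of the 10, 2520 to 3666 higher and 2511 to 3899 lower of all genes, 12 to 17 higher and 8 to 13 lower of the 56 listed relatives and partners, and 28.6% to 30.1% of RCC2 left. At an adjusted p under 0.01, 2069 genes were higher and 2048 lower. With total counts alone 28% of RCC2 was left, and 2978 genes were higher and 3982 lower, against 3423 and 3488. RCBTB2 reversed to -0.04 without siRCC2 replicate 3. Of the 28 relatives and partners called, 19 kept their call without each library.

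Replicate numbers are shared by the groups. Over the 16536 tested genes, same-numbered libraries deviated together little or not at all (correlations of 0.06, -0.04 and 0.10). Not every library correlated best with its own number, and the numbers are not taken as pairs. In RCC1 the library numbered 2 was the lowest of both groups. With the replicate number as a block, 2 of the 10 genes were higher, RCC1 being added (0.36, edgeR adjusted p = 0.0231), and 3075 of all genes were higher and 3220 lower. With the block and exon length offsets 4 were higher, RCC1L, RCC1 (0.33), HERC1 (0.49) and HERC2 (0.31), and 4 lower. In that fit 3161 of all genes were higher and 3195 lower. Depth limits RCBTB2 and RPGR, with 11 to 75 counts per library.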
